A study of Homo sapiens with 30 samples.

Results

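The genes described here are NR3C1, which encodes the glucocorticoid receptor, and 6 genes known as its targets, FKBP5, TSC22D3, SGK1, KLF9, ZBTB16 and CRISPLD2. They were chosen by name, and their probes are those that carry one of the 7 names in the array files, 10 probes of 58201. Of the 7 genes, 6 passed the filter on dim probes and were tested, among 24518 gene names with 32100 probes. They were followed on 30 one-colour arrays in BEAS-2B, an immortalized human cell line that comes from the lining of the bronchi. Cells had been grown on Transwell inserts in BEGM medium and kept at the air-liquid interface before the exposure. They then received 10 mg of whole birch pollen, blown into a sedimentation chamber with pressured air, or a mock exposure without pollen. The labels call the mock condition air, and the study describes it as cells that a fine mesh shielded from the pollen in the same run. RNA was taken at 5 times, which were 10 min, 55 min, 2h25 min and 6h50 min after the exposure and lastly 24 h, with 3 arrays for each exposure and time. All 10 groups thus shared the line, the medium and the handling in the chamber, and no group without handling was analysed here.

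Glucocorticoids cross the cell membrane and bind the receptor, which waits in the cytosol in a complex with heat shock proteins and their co-chaperones. The bound receptor moves to the nucleus, raises the transcription of target genes at glucocorticoid response elements, and lowers that of many cytokine genes. In airway epithelium this is the route by which inhaled steroids act. Media for bronchial epithelial cells such as BEGM are usually supplied with hydrocortisone, so that the receptor can be active in culture without any added drug. The hormone was not measured in these samples.

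A level below is the log2 of a probe's background-corrected brightness minus the log2 of the 75th percentile of its array, so that 0 stands for a brightness at that percentile. It can be compared between arrays for a probe, not between probes. The representative probe of a gene is the brightest, and a difference counts as called where limma's p, adjusted by Benjamini-Hochberg over all 32100 probes, was under 0.05 and the change was at least 1.1-fold. The share of probes well above background ran from 44.7% to 59.3% over the arrays, and 0 spots were saturated. The 75th percentile lay between 578 and 1151 units on the 6 arrays of 6h50 min and between 1044 and 2111 on the others. All 7 epithelial markers, 5 keratins among them, were well above background on all 30 arrays, as were the 3 mesenchymal ones. Of the markers of other cells, PTPRC, PDGFRB and DCN were well above background on all 30 and VWF on 28, PECAM1 and LUM were on 0, and LYZ and CD68 had no probe by that name. The summed level of the epithelial markers, on a linear scale, was between 131 and 174 on the arrays of 24 h and between 202 and 318 on the others, and that of the mesenchymal markers between 61.6 and 72.7 at 6h50 min, between 72.1 and 89.9 at 24 h and between 62.4 and 138 before. The fibroblast markers summed to 0.085 to 0.126 at 24 h and to 0.145 to 0.787 before, and all sums of the leukocyte and endothelial markers were at most 0.081. Their part in the results was not tested. On an extract of whole cultures, a change in the RNA per cell and in the share of cells that carry it cannot be told apart.

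The slide that held an array moved with the time. Slide 1 held the 6 arrays of 10 min and 1 mock array of 55 min, and slide 2 held 4 arrays of 55 min and 4 of 2h25 min. Slide 4 held 2 arrays of 2h25 min and the 6 of 24 h. The 6 arrays of 6h50 min were alone on slide 5, which was scanned on a day of its own, so that this time and its slide cannot be told apart. Replicate 1 of pollen at 55 min was alone on slide 3, which is of another design with 42405 probes and was also scanned on a day of its own. The mock and pollen arrays of a replicate number lay on the same slide in all groups except replicate 1 of 55 min.

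The probes and promoters show what was read and where a receptor site was looked for. The ZBTB16 probe lies at chr11:114117992-114118051 of hg19 on the plus strand, and its letters are shown because they read into the repeated zinc finger sequence by which this protein binds DNA.
ZBTB16 probe, 60 bases: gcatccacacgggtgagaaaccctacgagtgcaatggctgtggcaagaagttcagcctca
The representative probes of the other genes are at chrX:106956486-106956545 for TSC22D3, chr6:35541928-35541987 for FKBP5, chr6:134490656-134490715 for SGK1, chr9:72999837-72999896 for KLF9, chr5:142660729-142660788 for NR3C1 and chr16:84942138-84942197 for CRISPLD2, as the array files give them on hg19. No annotation of that build was used, so that their place in an exon or UTR is not given. RefSeq start sites on GRCh38.p14 gave 18 windows of 250 bases upstream of 6 of the genes. ZBTB16 had no entry. The windows were searched on both strands for the full response element, which is the half-site AGAACA and its reverse complement TGTTCT with 3 bases between, for a looser form of it with GNACA and TGTNC, for the half-site alone and for the GC box GGGCGG. Among all 35116 windows of 27305 genes the full element was in 0.00285%, the looser form in 0.327%, the half-site in 12.4% and the GC box in 42.6%. In the 18 windows of the receptor and its targets there were 0 matches to the first 3, and 11 windows had at least 1 GC box. Shown 5′ to 3′ are windows of the 4 genes called lower at 24 h than at 2h25 min both with and without the slide in the model. Where a gene has several windows, the one with the most GC boxes is shown. Each GC box or its reverse complement is in capitals.
FKBP5, chr6:35688916-35689165, minus strand: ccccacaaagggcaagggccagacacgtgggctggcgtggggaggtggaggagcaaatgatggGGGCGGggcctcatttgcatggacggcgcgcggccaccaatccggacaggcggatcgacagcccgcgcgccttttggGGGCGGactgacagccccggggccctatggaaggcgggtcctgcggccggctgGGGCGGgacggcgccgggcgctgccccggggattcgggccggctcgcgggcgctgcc
TSC22D3, chrX:107775989-107776238, minus strand: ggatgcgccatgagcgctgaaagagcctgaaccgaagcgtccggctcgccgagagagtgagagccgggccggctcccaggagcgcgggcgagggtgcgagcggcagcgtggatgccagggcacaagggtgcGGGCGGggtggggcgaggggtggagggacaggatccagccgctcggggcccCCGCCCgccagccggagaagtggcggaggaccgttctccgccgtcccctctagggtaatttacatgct
SGK1, chr6:134174867-134175116, minus strand: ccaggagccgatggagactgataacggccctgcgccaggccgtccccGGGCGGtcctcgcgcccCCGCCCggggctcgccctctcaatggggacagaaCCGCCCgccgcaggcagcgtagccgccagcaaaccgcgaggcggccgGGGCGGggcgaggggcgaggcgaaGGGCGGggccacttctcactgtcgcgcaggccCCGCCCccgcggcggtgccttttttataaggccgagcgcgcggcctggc
KLF9, chr9:70414658-70414907, minus strand: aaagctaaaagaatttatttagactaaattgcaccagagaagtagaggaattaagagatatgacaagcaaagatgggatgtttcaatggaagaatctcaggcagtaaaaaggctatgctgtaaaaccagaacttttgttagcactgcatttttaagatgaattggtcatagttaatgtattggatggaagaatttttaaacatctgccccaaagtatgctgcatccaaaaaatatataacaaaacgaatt
FKBP5 had 3 GC boxes in the window shown, TSC22D3 2, SGK1 6 and KLF9 0. These counts are the highest of each gene by the way the windows were picked. In the windows not shown, FKBP5 and SGK1 had 0 and TSC22D3 had 0 or 1. A missing match says only that these letters are not in these windows, since response elements often lie far from the start site.

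**Figure D1:**
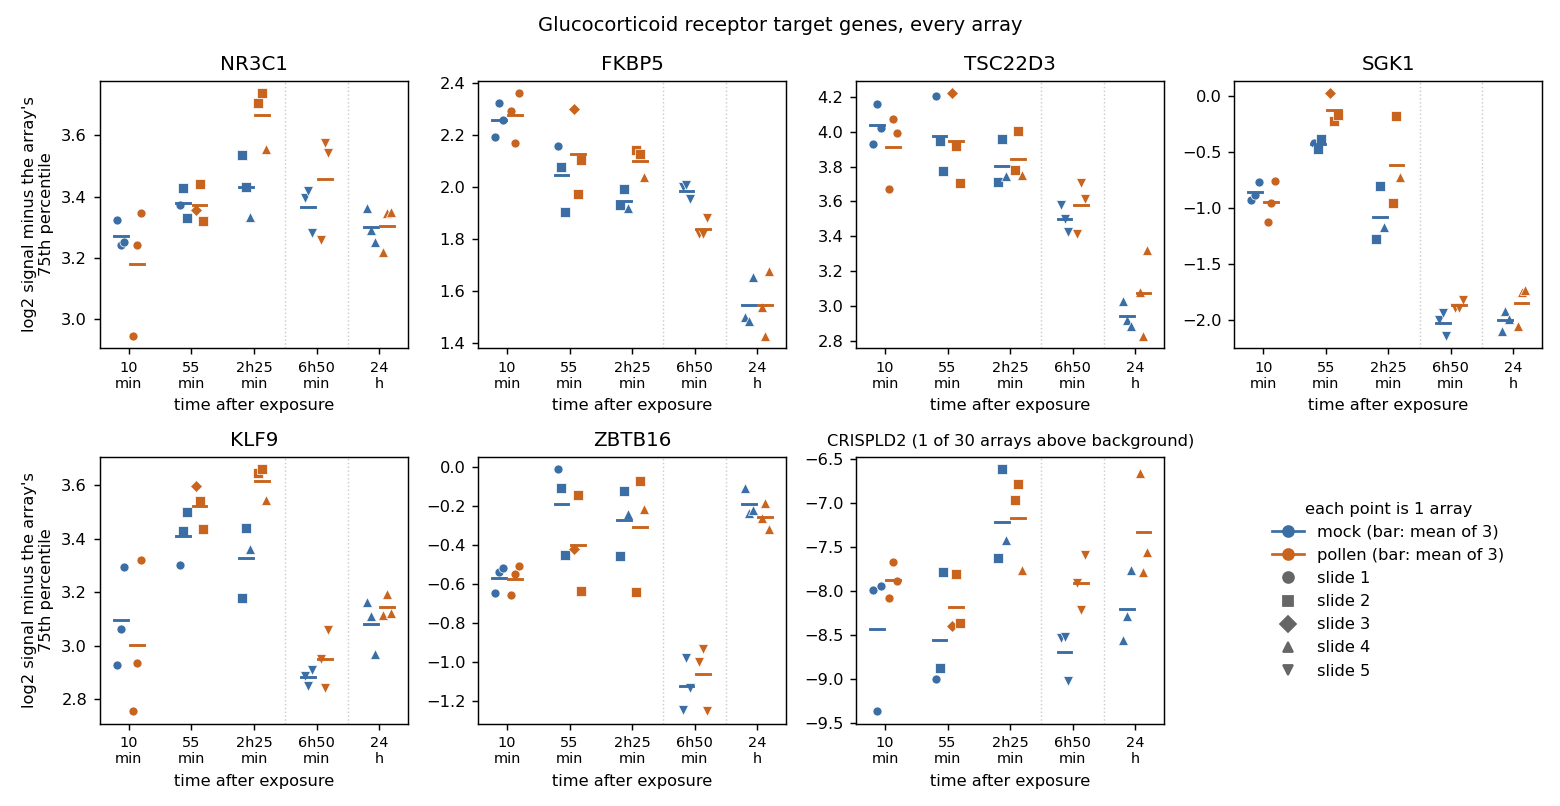
Level of each gene on every array (log2 brightness minus the 75th percentile of the array) against the time after exposure, for mock in blue and pollen in orange, with the mean of 3 arrays as a bar and the slide as the shape of the point. FKBP5 and TSC22D3 were lowest at 24 h, SGK1 was highest at 55 min, ZBTB16 was lowest at 6h50 min on its own slide, and CRISPLD2 was at background.

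NR3C1, the receptor itself, varied least of the 6 genes. Its level lay between 2.95 and 3.74 over the 30 arrays, a range of 0.79. The 3 mock arrays read 3.32, 3.24 and 3.25 at 10 min, 3.53, 3.43 and 3.33 at 2h25 min and 3.36, 3.29 and 3.25 at 24 h. The order of the mock means was 2h25 min, 55 min, 6h50 min, 24 h and 10 min, from 3.43 ± 0.10 to 3.27 ± 0.04 (SD, n = 3), and the arrays of neighbours in this order overlapped. The F test over the 5 times did not call NR3C1 in mock, with an adjusted p in limma of 0.559. In pollen it did, with an adjusted p of 0.00318, and the mean there went from 3.18 ± 0.21 at 10 min to 3.67 ± 0.10 at 2h25 min and 3.31 ± 0.07 at 24 h. The difference between the courses in mock and in pollen was tested between neighbouring times, and NR3C1 was not called in any of those 4 tests. The other probes of NR3C1 were both called over time in pollen, with adjusted p of 0.014 and 0.0246, and not in mock.

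FKBP5, a co-chaperone that lowers the affinity of the receptor for hormone and is itself among its best known targets, was highest at 10 min and lowest at 24 h. At 10 min it read 2.19, 2.32 and 2.26 in mock and 2.30, 2.17 and 2.36 in pollen. At 24 h it read 1.5, 1.49 and 1.65 in mock and 1.54, 1.43 and 1.68 in pollen. All 6 arrays of 24 h thus lay below the 24 arrays of the earlier times. The times between were close to each other, with means over mock and pollen of 2.09 ± 0.14 at 55 min, 2.03 ± 0.09 at 2h25 min and 1.91 ± 0.09 at 6h50 min (SD, n = 6).

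TSC22D3, which encodes the anti-inflammatory leucine zipper protein GILZ, had the same order. Its arrays of 10 min read 3.93, 4.16 and 4.02 in mock and 3.67, 4.08 and 4.0 in pollen. Its arrays of 24 h read 3.03, 2.92 and 2.88 in mock and 3.08, 2.83 and 3.32 in pollen. The 6 arrays of 24 h lay below all others, and the next to lowest time, 6h50 min, lay between 3.41 and 3.71. The means of 10 min and 55 min, 3.98 ± 0.17 and 3.96 ± 0.21, differed by less than their spread.

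SGK1, a kinase that regulates sodium channels and cell survival, moved most, over a range of 2.17. Its arrays of 10 min read -0.93, -0.88 and -0.77 in mock and -1.13, -0.96 and -0.75 in pollen. At 55 min they read -0.41, -0.48 and -0.39 in mock and 0.03, -0.22 and -0.16 in pollen. All 6 arrays of 55 min were above all 6 of 10 min. At 2h25 min the spread was wide, from -1.28 to -0.81 in mock and from -0.96 to -0.17 in pollen. At 6h50 min and 24 h the arrays lay together between -2.14 and -1.73, below every earlier one.

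KLF9, a transcription factor of the Krüppel-like family, had its highest means at 55 min and 2h25 min, both 3.47 over mock and pollen. It read 2.93, 3.06 and 3.29 in mock and 2.75, 2.94 and 3.32 in pollen at 10 min, and between 3.30 and 3.6 at 55 min. The lowest level of 55 min was thus below the highest of 10 min. Its mean was lowest at 6h50 min, where the arrays lay between 2.84 and 3.06, and at 24 h it lay between 2.97 and 3.19.

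ZBTB16, a transcription factor also known as PLZF that steroids induce in many tissues, had another order. Its arrays of 10 min lay between -0.66 and -0.51 and those of 24 h between -0.32 and -0.10. Those of 55 min and 2h25 min spread from -0.64 to -0.01. The 6 arrays of 6h50 min, between -1.26 and -0.94, were below all others.

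CRISPLD2, which encodes a secreted protein induced by steroids in airway smooth muscle, was not measured above background. Its probe was well above background on 1 of 30 arrays, with a brightness between 1.57 and 15.8 units over all of them. It did not pass the filter, and no fold change is given.

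Whether the exposure to pollen moved these genes was asked by setting the pollen arrays of a time against the mock arrays of that time. Of the 6 tested genes, 0 were called at 10 min, where 0% of all probes were, 0 at 55 min against 0.00312% of all probes, 0 at 2h25 min against 0.0343%, 0 at 6h50 min against 0.0436% and 0 at 24 h against 0.00312%. With limma at an unadjusted p under 0.05, the count was 3 of 6 at 2h25 min, where 2.98% of all probes passed that mark, and 0 at the other times. The genes were SGK1, KLF9 and NR3C1, all with pollen above mock. A median of 0.19 over the 6 genes at 2h25 min stood beside a median of -0.03 over all probes. The 95% intervals of all 30 differences lay between -0.51 and 0.78. The number of all probes called at 6h50 min depended on the processing. It ran from 0 to 786 over the alternatives, under which 0 of the 6 genes were called.

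At 2h25 min SGK1 was 0.47 higher in pollen (95% interval 0.15 to 0.78), with the pollen arrays at -0.96, -0.17 and -0.73 and the mock arrays at -1.28, -0.81 and -1.17. These groups overlapped, and pollen was above mock in each of the 3 pairs of the same number. KLF9 was 0.29 higher (0.05 to 0.53), with pollen at 3.65, 3.66 and 3.55 above all of the mock arrays at 3.18, 3.44 and 3.36. NR3C1 was 0.23 higher (0.03 to 0.44), with pollen at 3.71, 3.74 and 3.56 above mock at 3.53, 3.43 and 3.33. FKBP5 did not overlap either, with pollen between 2.04 and 2.14 and mock between 1.92 and 1.99, for a difference of 0.15 (-0.03 to 0.34). How many of all probes had groups apart like this is not given, so these separations are descriptions. TSC22D3 differed by 0.04 (-0.26 to 0.34) and ZBTB16 by -0.04 (-0.33 to 0.26). Within slide 2, which held 2 arrays of each exposure at this time, SGK1 was 0.48 higher in pollen, KLF9 0.34 and NR3C1 0.24.

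The replicate number paired the arrays at this time. With the number as a block the adjusted p of SGK1 in limma was 0.0807, and 0 of the 6 genes were called. SGK1 had pollen above mock without overlap at 55 min, from -0.22 to 0.03 against -0.48 to -0.39. The same held at 6h50 min, from -1.90 to -1.82 against -2.14 to -1.94. The share of all probes with groups apart in this way is not given, so these separations are descriptions. FKBP5 had its groups apart at 2h25 min with pollen above, and at 6h50 min with pollen below. Its pollen arrays at 6h50 min read 1.82, 1.82 and 1.88 and its mock arrays 2.0, 2.01 and 1.95. Its other probe, dimmer, had the opposite sign at 6h50 min, with pollen 0.54 above mock, which was not called (adjusted p in limma 0.692). The change of the pollen effect from 2h25 min to 6h50 min was -0.30 for FKBP5, with an adjusted p of 0.851, and 0.078 as the mean over its probes. Over the 4 steps between neighbouring times, 0 of 6 genes were called for a change of the pollen effect in limma, and FKBP5 at this step was the single gene with an unadjusted p under 0.05. Among all probes 0%, 0%, 0.00312% and 0% were called at the 4 steps.

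**Figure D2:**
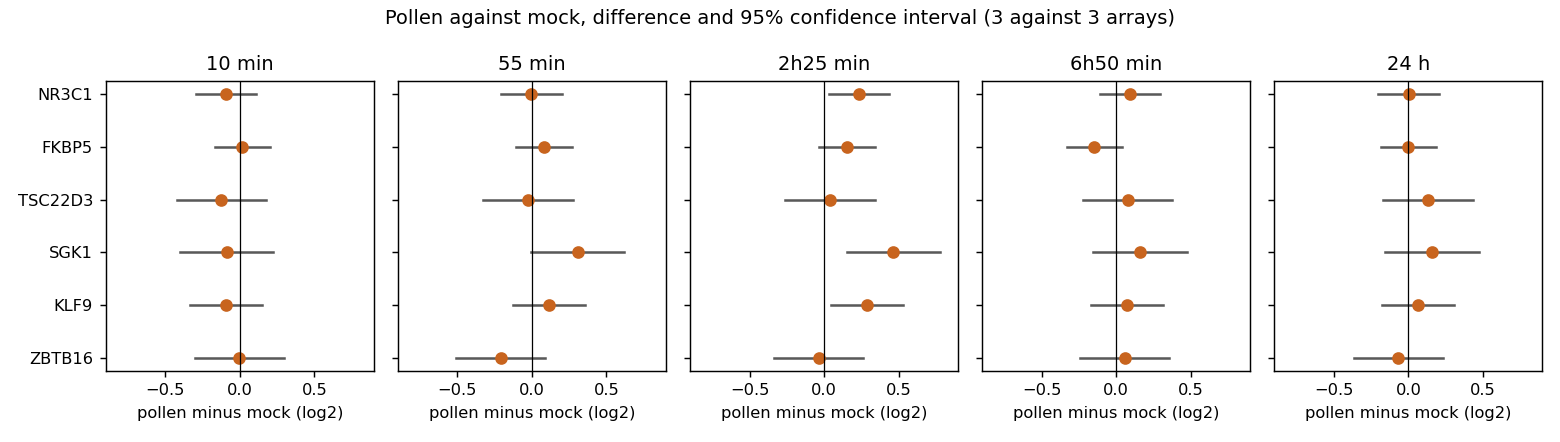
Difference of pollen minus mock for each tested gene at each time, on the log2 scale, with 95% confidence intervals from limma and 3 against 3 arrays. At 2h25 min the intervals of SGK1, KLF9 and NR3C1 lie above 0, and no gene was called after adjustment over all probes.

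From 10 min to 55 min, over mock and pollen together, 2 of the 6 genes rose and 0 fell, where 2.14% of all probes were called higher and 3.42% in either direction. SGK1 rose by 0.63 ± 0.11 (SE, 1.55-fold, adjusted p in limma 0.00175) and KLF9 by 0.42 ± 0.08 (1.34-fold, adjusted p 0.00582). Within pollen both were called, SGK1 at 0.83 and KLF9 at 0.52, where 0.841% of all probes were. Within mock neither was, at 0.43 and 0.32, where 0.187% of all probes were, and the difference between the exposures was not called for any of the 6 genes. ZBTB16 differed by 0.28, NR3C1 by 0.15, FKBP5 by -0.18 and TSC22D3 by -0.01, and these were not called. With the slide as a fixed block SGK1 differed by 0.61 and KLF9 by 0.26, with adjusted p of 0.709 and 1, and 0.0312% of all probes were called. The 1 mock array of 55 min on the slide of 10 min, at -0.41 for SGK1, was above all 6 arrays of 10 min beside it. The pollen arrays of 55 min all lay on other slides, and the highest for SGK1, at 0.03, was the array of the other design.

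From 55 min to 2h25 min SGK1 fell, by 0.58 ± 0.11 on the log2 scale (adjusted p 0.00898), and the other 5 genes were not called, where 0.193% of all probes were called lower and 0.654% in either direction. Within slide 2, with 4 arrays of each time, SGK1 fell by 0.49, which was not called, with an adjusted p of 0.555 and 0% of all probes called. With the slide as a fixed block over all arrays the difference was also -0.49, with an adjusted p of 0.138. The arrays of the 2 times overlapped on that slide. KLF9 and ZBTB16 had differences of 0.00 at this step, so that the level of KLF9 reached at 55 min was also found at 2h25 min, in these arrays.

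From 2h25 min to 24 h 5 of the 6 genes fell and 0 rose, where 21% of all probes were called lower, 18.7% higher and 39.8% in either direction. This pair of times was compared because slide 4 holds arrays of both. SGK1 fell by 1.07 ± 0.11 on the log2 scale, to 0.475 times its level. TSC22D3 fell by 0.82 ± 0.10, to 0.568 times, and FKBP5 fell by 0.48 ± 0.06, to 0.718 times. KLF9 fell by 0.36 ± 0.08 and NR3C1 fell by 0.25 ± 0.07, and ZBTB16 differed by 0.07 ± 0.10. The adjusted p in limma was at most 0.00695 for the 5 genes. Their median with ZBTB16 was -0.42, beside -0.05 over all probes.

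With the slide as a fixed block, 4 of these 5 genes remained called, where 26.2% of all probes were. The difference was -0.98 for SGK1, -0.74 for TSC22D3, -0.43 for FKBP5 and -0.34 for KLF9, and NR3C1 at -0.14 was not called (adjusted p 0.345). The differences are those within slide 4, which had 2 arrays of 2h25 min and 6 of 24 h. Fitted on those 8 arrays alone, SGK1 and TSC22D3 were called, with adjusted p of 0.0113 and 0.0264, where 15.3% of all probes were. FKBP5 and KLF9 had adjusted p of 0.0536 and 0.0761 there. On this slide the 2 arrays of 2h25 min read 3.74 and 3.75 for TSC22D3, above the highest array of 24 h at 3.32. For SGK1 they read -1.17 and -0.73, above -1.73.

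Mock and pollen moved alike in sign at this step. In mock the difference was -0.92 for SGK1, -0.86 for TSC22D3 and -0.40 for FKBP5, and these 3 were called, where 27.4% of all probes were. In pollen they differed by -1.23, -0.77 and -0.56, and KLF9 at -0.47 and NR3C1 at -0.36 were called as well, where 23% of all probes were. A difference between the exposures at this step was not tested. Against 10 min, 1 of the 6 genes was higher at 24 h and 3 were lower, where 23.6% of all probes were called higher, 29.3% lower and 52.9% in either direction. TSC22D3 fell by 0.97 ± 0.10, SGK1 fell by 1.02 ± 0.11 and FKBP5 fell by 0.72 ± 0.06, while ZBTB16 rose by 0.35 ± 0.10. With the slide as a fixed block 0 of the 6 were called in this comparison, where 5.61% of all probes were.

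The steps into and out of 6h50 min carry the slide with them. At 6h50 min 4 of the 6 genes were lower than at 2h25 min, where 33% of all probes were called lower and 49.7% in either direction. SGK1 fell by 1.1 ± 0.11, ZBTB16 fell by 0.80 ± 0.10, KLF9 fell by 0.56 ± 0.08 and TSC22D3 fell by 0.29 ± 0.10 on the log2 scale. The median of all probes was -0.14 at this step, and relative to it the differences were -0.96, -0.67, -0.42 and -0.15. Of the probes called, 33.7% were higher, and 48.1% were after quantile normalization. From 6h50 min to 24 h ZBTB16 rose by 0.87 ± 0.10 and KLF9 by 0.20 ± 0.08, and TSC22D3 fell by 0.53 ± 0.10 and FKBP5 fell by 0.37 ± 0.06, where 34.5% of all probes were called higher, 21.4% lower and 55.9% in either direction. KLF9 lost this call without any one of 10 of the 12 arrays (adjusted p up to 0.112), and kept it without pollen replicate 3 of 6h50 min or mock replicate 3 of 24 h. TSC22D3 lost its call at the step before without mock replicate 2 or pollen replicate 2 of 2h25 min or pollen replicate 1 of 6h50 min (adjusted p of 0.0685, 0.0664 and 0.0677). SGK1 differed by 0.03 from 6h50 min to 24 h. The other probe of FKBP5, well above background on 22 of 29 arrays, disagreed here: it differed by 0.22 from 6h50 min to 24 h and by -0.95 from 2h25 min to 6h50 min. Over the 5 times 5 of the 6 genes were called in mock, where 61.9% of all probes were, and 6 of 6 in pollen, where 60.7% were.

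**Figure D3:**
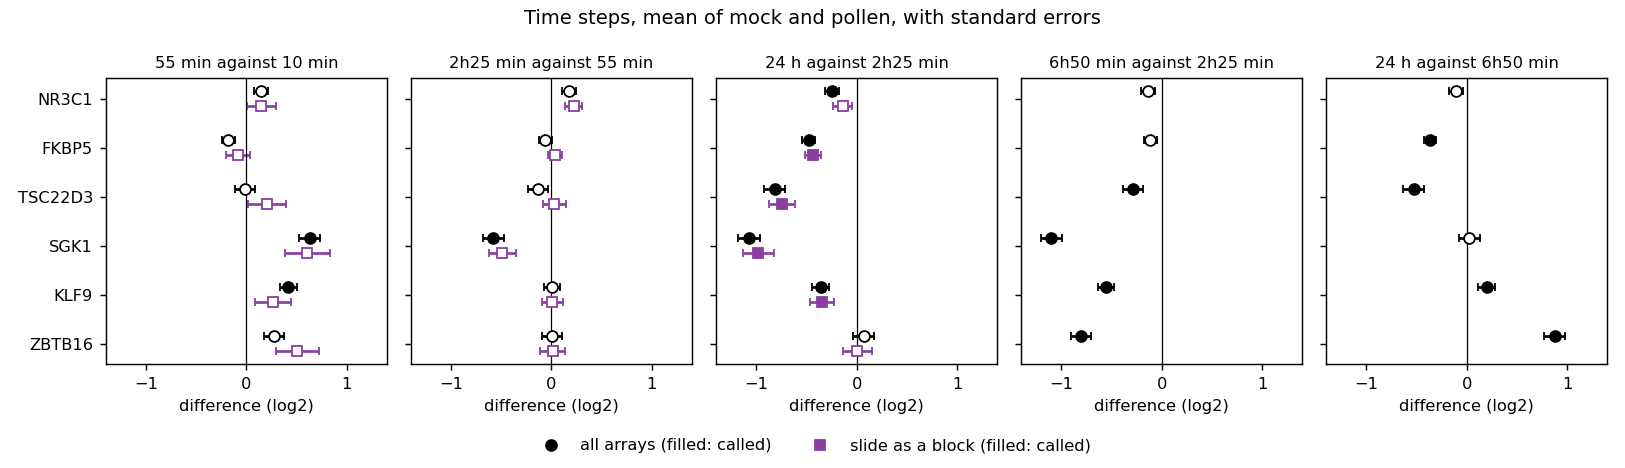
Differences between times on the log2 scale with standard errors, over mock and pollen together, from all arrays (black circles) and with the slide as a block (purple squares), filled where called. SGK1, TSC22D3, FKBP5 and KLF9 were called lower at 24 h than at 2h25 min in both fits, and the steps with 6h50 min have no value with the slide as a block.

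Over the 30 arrays, TSC22D3 and FKBP5 had the highest correlation among the 15 pairs of the 6 genes, with a Pearson r of 0.89, and of 0.57 once the mean of each group was taken out. TSC22D3 and SGK1 had an r of 0.78, and of 0.44 within groups. SGK1 and KLF9 had an r of 0.73, and of 0.47 within groups, and FKBP5 and SGK1 one of 0.68, and of 0.26. ZBTB16 and TSC22D3 had an r of 0.01. These arrays share slides and times, and the values are descriptions.

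**Figure D4:**
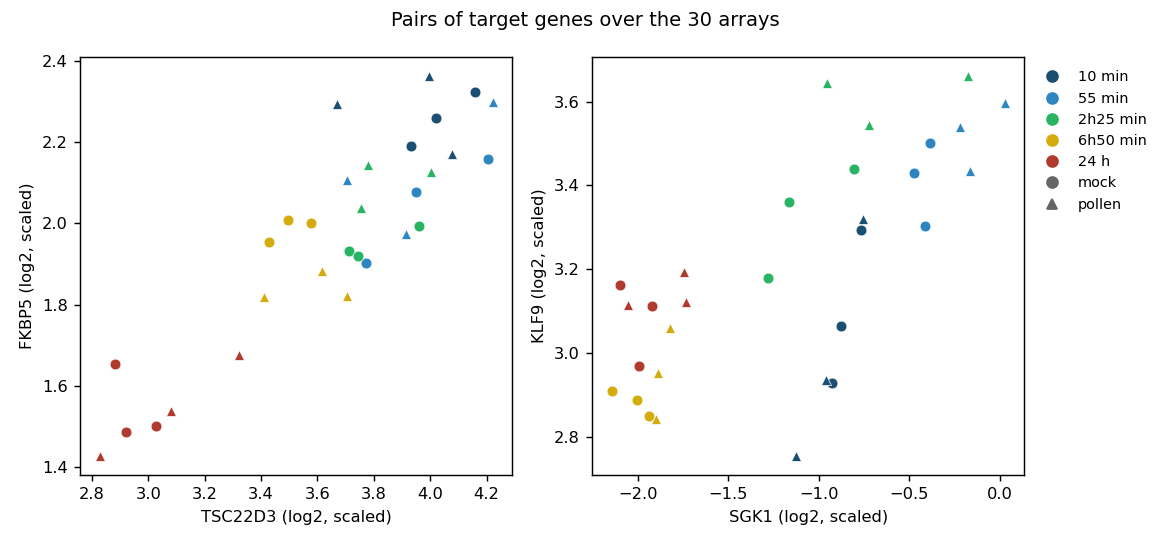
Levels of FKBP5 against TSC22D3 and of KLF9 against SGK1 on the 30 arrays, on the log2 scale, coloured by time, with circles for mock and triangles for pollen. The 6 arrays of 24 h are apart at the low end of TSC22D3 and FKBP5, and KLF9 at 55 min and 2h25 min is above its level at the other times in most arrays.

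Among 12985 gene names well above background on all arrays, those with the pattern most like each gene were found by Pearson r over the 30 arrays. TSC22D3 was followed most closely by NREP with r = 0.98, SLC26A2 with 0.97 and CCDC80 with 0.97. FKBP5 was followed by NT5C3A with 0.95, MCM6 with 0.94 and RWDD2B with 0.93. SGK1 was followed by EDN1 with 0.95, CFHR3 with 0.93 and CCN2 with 0.93, KLF9 by ERRFI1 with 0.90, BHLHE40 with 0.89 and GASAL1 with 0.88. ZBTB16 was followed by NFIX with 0.91, ATP8B2 with 0.90 and GPC1 with 0.88, and NR3C1 by JAG1 with 0.83, RBMS1 with 0.82 and MAP2K3 with 0.82. Once the mean of each group was taken out, every r was lower. It then ran from 0.36 for SGK1 with CCN2 and 0.39 with EDN1 to 0.92 for TSC22D3 with NREP.

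A list of 31 other genes that glucocorticoids are known to induce gave 30 tested genes, without KLF15. At 24 h against 2h25 min 17 of the 30 fell and 2 rose, where 21% of all probes were called lower and 18.7% higher, with a median of -0.36 beside -0.05 over all probes. MT1X, a metallothionein that binds zinc, fell by 1.89 on the log2 scale, SERPINA3, a protease inhibitor, fell by 1.71 and SCNN1A, the alpha subunit of the epithelial sodium channel, fell by 1.12, while SLC19A2, a thiamine transporter, rose by 0.27. A fixed block for the slide left the first 3 called at -1.78, -1.72 and -1.16, and SLC19A2 was not. From 10 min to 55 min 7 of the 30 rose and 0 fell, where 2.14% of all probes were called higher, with a median of 0.11 beside 0.00 over all probes. Most of the slide changes with the time at this step, and with the slide as a fixed block 0.0312% of all probes were called. Against mock, 1 of the 30 rose in pollen at 2h25 min and 1 at 6h50 min, and both times it was ANGPTL4, a lipase inhibitor that fatty acids and hypoxia also induce, at 1.98 and 1.99. At 2h25 min it kept its call only without pollen replicate 3 among the 6 leave-one-out fits, with adjusted p up to 0.331, and at 6h50 min only without mock replicate 3, with adjusted p up to 0.182. Over time, ANGPTL4 fell by 2.60 from 2h25 min to 24 h, more than MT1X, and was called under all 13 alternatives. Its rise of 1.51 from 10 min to 55 min was called, with adjusted p in limma up to 0.378 over the alternatives.

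A list of 23 genes around the receptor held its chaperones, carriers and partners, genes for hormone conversion (HSD11B1, HSD11B2, H6PD) and the related receptor NR3C2. Of these, 22 were tested, without HSD11B1. Among the 22, 6 rose and 4 fell from 2h25 min to 24 h, where 18.7% of all probes were called higher and 21% lower. Their median was 0.09 beside -0.05 over all probes. HSPA4, an Hsp70-type chaperone, rose by 0.25, and NCOR1, a corepressor, fell by 0.29. HSPA4 kept the call in 4 of the 12 fits that left out 1 array, with adjusted p up to 0.116, and NCOR1 in 12 of 12. Neither was called at this step with the slide as a fixed block. At 6h50 min against 2h25 min, a step that carries the slide, 49.7% of all probes were called in either direction. NCOR1 was called lower there, by 1.21, and HSPA4 higher, by 0.55. Over the alternatives the rise of HSPA4 ran from 0.08 to 0.65, with adjusted p in limma up to 0.507. BAG1, a co-chaperone, was called higher by 0.50, and CREBBP, an acetyltransferase and coactivator, by 0.36. The 22 genes had 0 called for pollen against mock at any time, with medians between -0.02 and 0.05.

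Of 18 cytokine, adhesion and enzyme genes that glucocorticoids repress 16 were tested, without CXCL10 and MMP1. At 24 h against 2h25 min 11 of them fell and 0 rose, where 21% of all probes were called lower, with a median of -1.19 beside -0.05 over all probes. Of the 11, CXCL8, TNF, PTGS2 and CSF2 were well above background on 25, 13, 12 and 7 of the 30 arrays and the other 7 genes on all 30. The filter kept a probe that was well above background in some group, so a gene dim at 24 h could enter through an earlier time. For CXCL8, TNF, PTGS2 and CSF2 the filter may thus have favoured a fall, and their falls are weak evidence. The median without them is not given. CCL2, which attracts monocytes, fell by 2.90 and CXCL1, which attracts neutrophils, fell by 2.16 on the log2 scale. CXCL8, another neutrophil attractant, was well above background on all arrays before 24 h and on 1 of 6 arrays at 24 h, so no fold is given. LIF, a cytokine of the IL6 family, was the one of the 16 called for pollen against mock, 1.1 higher at 2h25 min. It lost the call without mock replicate 1 or 2 or pollen replicate 1 or 2, with adjusted p up to 0.295.

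**Figure D5:**
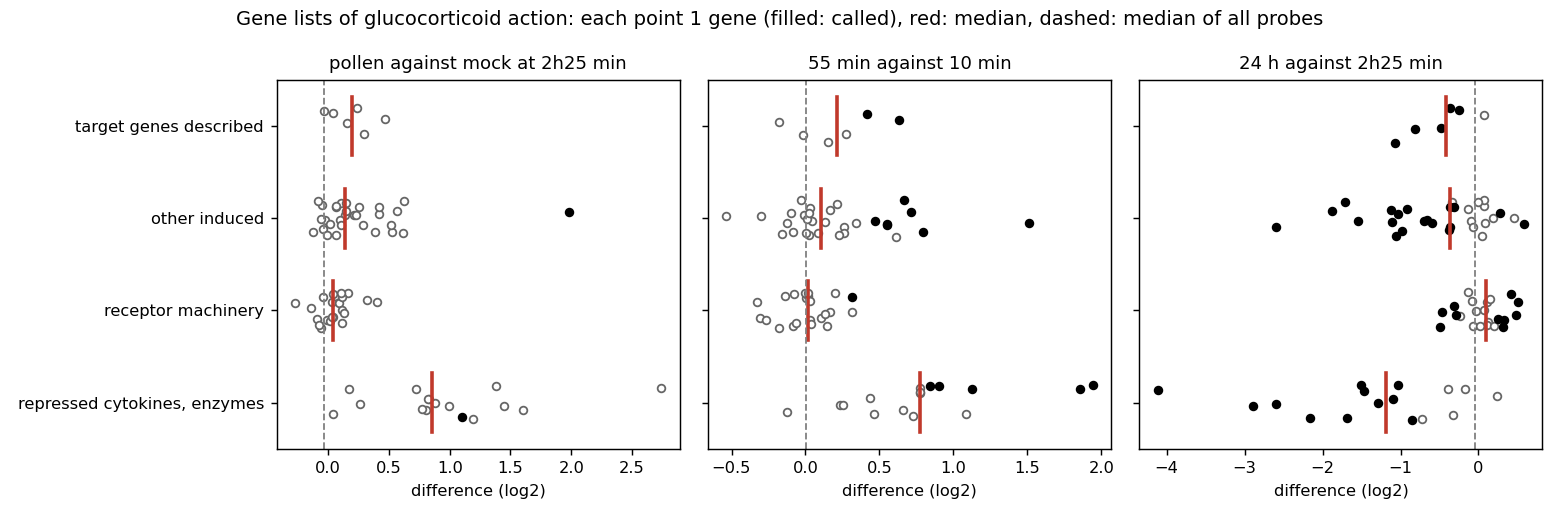
Differences on the log2 scale for NR3C1 with its tested targets, in 1 row, and for the genes of the other lists in 3 comparisons. Each point is a gene and filled where called, with the median of the list in red and the median of all probes as a dashed line. At 24 h against 2h25 min the medians of NR3C1 with its tested targets (-0.42), the other induced genes (-0.36) and the repressed genes (-1.19) lie below the median of all probes (-0.05). The repressed median includes genes that were not above background on all arrays, and the leftmost repressed gene is CXCL8, near background at 24 h.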

How the data were processed

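Spot intensities were deposited per array; per the file headers the authors had them background-subtracted and detrended with Agilent Feature Extraction 11.0.1.1, with no scaling between arrays. Uneven and outlier spots were left out and spots of a probe averaged. From each log2 intensity the array's 75th percentile, taken over 33873 probes that both designs share, was subtracted. A deposited table of the authors' log2 values served as an alternative. Each of its 6 columns for 24 h matched another array of its own group. 0 columns were left without a condition.

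A probe was tested if some group had it well above background on each of its 3 arrays. Tests used limma 3.58.1 in R 4.3.3, as 10 group means with 20 residual degrees of freedom, after a test on simulated data. Interactions and F tests were called on the adjusted p alone. The precision rests on 3 arrays per group. The study's methods give at least 3 repetitions on separate days for its exposures, and the labels do not tie an array to a day. 0 of the 10 probes lay in dim areas of an array.

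The genes and lists were chosen with earlier results of these data known. Named genes are the 7 genes, the 4 of each other list with the smallest p over time in mock and those called for pollen. The comparison of 24 h with 2h25 min was added once the slides had been seen. Mock and pollen arrays of the same number deviated together at 10 min, 2h25 min and 24 h, with correlations of at least 0.299 in every pair, while at 55 min and 6h50 min they ran from -0.068 to 0.396 and from -0.028 to 0.232. Alternatives were other scalings, filters, weights, blocks, probes and the authors' table, and leaving out each array in turn.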

Additional observations from a re-analysis of the deposited data

Results flagged for a closer look

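In 30 sets of 6 arrays, those of each time for each tested gene, the gap from the outermost array to its neighbour was set against the whole range. It was above Dixon's 95% critical value in 2 sets, and chance gives about 1 in 20. NR3C1 at 10 min had a ratio of 0.736, through pollen replicate 1 at 2.95 with the other 5 arrays between 3.24 and 3.35. KLF9 at 24 h had a ratio of 0.639, through mock replicate 3 at 2.97 with the others between 3.11 and 3.19. Groups of 3 arrays were not tested in this way.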

How the results depend on the processing

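Of the counts of called genes, those for pollen against mock and for the change of the pollen effect stayed at 0 of 6 under all alternatives tried, and those for the steps with 6h50 min and for any time in pollen stayed within 1.5 times their value. From 10 min to 55 min the count of 2 became 0 with the 75th percentile over each array's own probes, 5 with array weights, 0 with the slide as a fixed block, 1 with it as a random block and 1 with only the arrays compared. From 55 min to 2h25 min the count of 1 became 0 with the own-probe percentile, with the slide as a fixed block, with only the arrays compared and within the shared slide. At 24 h the count of 4 against 10 min became 0 with the slide as a fixed block, and the count of 5 against 2h25 min became 3 with the own-probe percentile and 2 within the shared slide. Over any time in mock 5 became 3 with the own-probe percentile, which moved the median of all probes to -0.18 from 10 min to 55 min and to 0.21 from 55 min to 2h25 min, through the array of the other design. Its share of higher probes among the called in the latter step was 90.2%, against 70.5%. Leaving out 1 array at a time gave counts from 2 to 3 at 55 min against 10 min and from 3 to 4 at each step with 6h50 min, and moved no other count. The direction turned for FKBP5 in the change of the pollen effect to 6h50 min (0.078 as the mean over a gene's probes), NR3C1 at 55 min against 10 min (-0.072 with the own-probe percentile), HSPA4 at 24 h against 6h50 min (0.092 as the mean over probes) and BAG1 at 24 h against 10 min (-0.026 with normexp and quantile normalization and -0.027 in the authors' table). The cause was not tested. The replicate block changed no call among the 6 genes and moved no count of them, as in 0 at 2h25 min for pollen against mock. The number of probes called from 10 min to 55 min, 1097, was 480 with the own-probe percentile, 6768 with array weights, 10 and 99 with the slide as a fixed and a random block and 227 with only the arrays compared. Steps with 6h50 min and tests over all times could not be fitted with the slide as a fixed block. CRISPLD2, at background, gives no bound on a change.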
